A study of Mus musculus with 6 samples.

Results

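The enzymes that break down the branched-chain amino acids leucine, isoleucine and valine were followed in inguinal white fat of cold-exposed mice. The 10 genes were a list of known enzymes and regulators of this pathway: Bcat2, Bckdha, Bckdhb, Dbt, Bckdk, Ppm1k, Ivd, Mccc1, Mccc2 and Hibch. They were picked by name, but with earlier results of these data known. All 10 were among the 16627 genes of the count table, and all 10 passed the filter on low counts. In 3 libraries Celf1 had been deleted in adipocytes (Celf1 AKO, here also the knockout), and 3 came from littermate Celf1 fl/fl mice (Flox control, here also the control), and both groups had been kept at 4 °C for 6 hours. There was thus no group at a warm temperature, and every comparison is between genotypes in the cold. No source used here gives the age or sex of the mice or the Cre line behind the knockout, and the labels do not say that each library came from a separate animal, so a p-value here weighs the genotypes against library-to-library spread, which may be technical.

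Leucine, isoleucine and valine share their first steps in mitochondria. BCAT2 moves the amino group off, and the branched-chain ketoacid dehydrogenase complex, built of E1 (BCKDHA and BCKDHB), E2 (DBT) and a shared E3 (DLD), then commits the carbon skeleton to oxidation. The kinase BCKDK phosphorylates E1 alpha and slows the complex, and the phosphatase PPM1K removes that phosphate. Brown fat and differentiated white adipocytes are known for high use of these amino acids, and brown fat takes them into mitochondria through SLC25A44 in the cold.

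The targeted gene, Celf1, measured 52.5, 49.8 and 63.0 CPM in knockout replicates 1, 2 and 3, against 126, 114 and 144 CPM in control replicates 1, 2 and 3 (CPM is the count relative to the library's total, scaled by TMM library factors). The groups did not overlap, and the knockout mean was 43.1% of the control mean in tissue that also holds cells other than adipocytes. In such bulk samples, fewer cells of a type and less RNA per cell cannot be told apart. Libraries held 54835348 to 64979443 counts, and the lowest count of any of the 10 genes in any library was 1196, for Ppm1k. Celf1 AKO replicate 3 stood apart from the other knockout libraries: it correlated with them at 0.978 and 0.976 across genes (log2 CPM) and with the 3 controls at 0.983 to 0.986. All 8 adipocyte markers examined were present, and their summed level was 37353 to 47463 CPM in Celf1 AKO and 43216 to 48751 CPM in Flox control. Among markers of other cells, Acta1 of skeletal muscle was at 1039 CPM in Celf1 AKO replicate 3 and at 23.1 to 75.2 CPM in the other 5 libraries, and neutrophil markers summed to 108 CPM there and to 3.20 to 24.9 CPM elsewhere. The other 3 muscle markers listed (Ckm, Myh4 and Mylpf) were not among the genes analysed here. Sums of the 6 endothelial markers (929 to 1078 against 531 to 764 CPM) and of the 5 Schwann cell markers (148 to 278 against 75.1 to 99.0 CPM) did not overlap between Celf1 AKO and Flox control. Taken singly, the endothelial markers Cdh5, Kdr, Cldn5 and Esam were higher in Celf1 AKO without overlap. Pecam1 and Tek overlapped, and Tek had the lower mean in Celf1 AKO (57.3 against 65.7 CPM). Neutrophil sums (15.6, 24.9 and 108 against 3.20 to 15.4 CPM) and the 1 of 4 lymph node markers in the table, Cd3e (1.13 to 1.57 against 0.474 to 0.892 CPM), also did not overlap. The neutrophil sums were only narrowly apart. Singly, S100a9 and Ngp did not overlap, while S100a8, Csf3r and Retnlg did. Of all genes tested, 7.81% were higher in Celf1 AKO without overlap. Sums of the 5 macrophage markers (248 to 781 against 437 to 639 CPM) and the 5 preadipocyte markers (679 to 1231 against 897 to 1192 CPM) overlapped, as did those of the 3 mammary epithelial markers in the table, of 4 listed (3.13 to 11.96 against 1.01 to 3.25 CPM). The part of these cell markers in the results that follow was not tested.

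Fitted changes of the 10 genes between the genotypes were small and mostly negative, which does not show that their levels were equal. Of the 10 genes, 9 had a negative log2 fold change (Celf1 AKO over Flox control) and 1 a positive one, with a median of -0.13 and a range from -0.30 for Hibch to 0.13 for Bckdhb. Over all 16366 genes tested the median was -0.02, and 52.5% were negative. By edgeR's quasi-likelihood test with Benjamini-Hochberg adjustment over all genes, 0 of the 10 passed 0.05, where 0.0122% of all genes did. The adjusted p-values of the 10 lay between 0.347 and 0.936. Celf1 itself, at a log2 fold change of -1.21, also missed 0.05 in this test (edgeR adjusted p = 0.122). Unadjusted, edgeR's p was under 0.05 for 1 of the 10, against 12.9% of all genes, and DESeq2 called 0 of the 10, against 2.97% of all genes. Only Hibch among the 10 had groups that did not overlap, with Celf1 AKO lower, as 9.51% of all genes had. These shares lie near the background, so the count of genes called is not a result about the pathway.

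**Figure D1:**
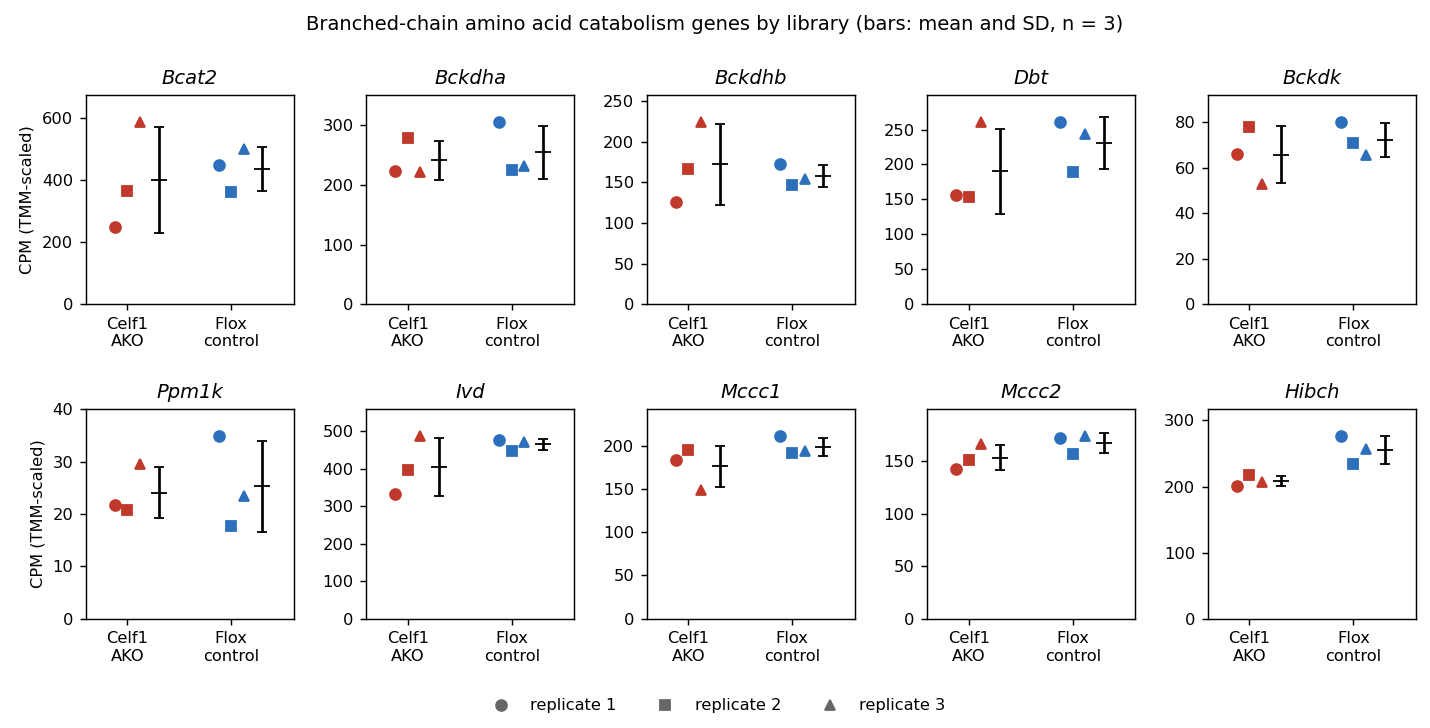
CPM (TMM-scaled, linear axis from 0) of each of the 10 genes in the 3 Celf1 AKO libraries (red) and the 3 Flox control libraries (blue), with the replicate number as marker shape and the group mean and SD (n = 3) as bars. The groups overlap for every gene except Hibch, and Celf1 AKO replicate 3 is the highest library for Bcat2, Bckdhb, Dbt and Ivd and the lowest for Bckdha, Bckdk and Mccc1.

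Of the transaminase genes, the mitochondrial one had by far the higher transcript level. Bcat2 (ENSMUSG00000030826; GRCm38 chromosome 7, 45570153 to 45589711, plus strand) measured 248, 366 and 586 CPM in knockout replicates 1, 2 and 3, against 447, 361 and 499 CPM in control replicates 1, 2 and 3. The knockout values spanned both sides of the control range, 2.36-fold from lowest to highest. The log2 fold change was -0.12 (SE 0.30; edgeR adjusted p = 0.894). Bcat1, the cytosolic transaminase of the wider pathway, averaged 8.48 ± 3.67 CPM in the knockout libraries and 9.26 ± 1.90 CPM in the controls (SD, n = 3 per group). In FPKM, the authors' measure per length of gene that allows levels of different genes to be compared, Bcat2 exceeded Bcat1 by 78.1-fold to 475-fold over the 6 libraries. An antisense gene, 0610005C13Rik, overlaps exons of Bcat2 and was not among the genes analysed here.

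Of the 3 genes specific to the dehydrogenase complex, none separated the genotypes. Bckdha, the E1 alpha subunit (ENSMUSG00000060376; chromosome 7, 25629946 to 25658981, minus strand), was at 223, 278 and 221 CPM in the knockout libraries, against 305, 225 and 232 CPM in the controls, replicates 1 to 3. Its log2 fold change was -0.08 (SE 0.16), and the groups overlapped. Bckdhb, the E1 beta subunit (ENSMUSG00000032263; chromosome 9, 83925145 to 84124240, plus strand), was at 126, 167 and 224 CPM in the knockout libraries, against 172, 147 and 154 CPM in the controls, with a log2 fold change of 0.13 (SE 0.21). The 3 control values of Bckdhb lay within 1.18-fold of each other, and the knockout values lay on both sides of them. Dbt, the E2 subunit that carries the lipoyl arm (ENSMUSG00000000340; chromosome 3, 116513070 to 116549981, plus strand), was at 156, 153 and 261 CPM in the knockout libraries, against 260, 189 and 244 CPM in the controls. Replicates 1 and 2 of Celf1 AKO were below all controls for Dbt and replicate 3 was above them all. Its log2 fold change was -0.28 (SE 0.23), and without Celf1 AKO replicate 3 it was -0.58 with an edgeR adjusted p of 0.0954, still short of 0.05. Exons of Bckdha overlap B3gnt8 on the opposite strand, and the counting is not stated to use strand, but B3gnt8 was at no more than 1.38 CPM in any library.

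In FPKM the subunits of the complex stood in one order in most libraries. Means over Flox control were 143 ± 15.7 for Bckdha, 107 ± 2.92 for Bckdhb and 69.9 ± 8.93 for Dbt (SD, n = 3), and means over Celf1 AKO were 134 ± 11.8, 117 ± 37.3 and 57.9 ± 21.1. Dld, the E3 subunit that pyruvate and 2-oxoglutarate dehydrogenases also use, was the most abundant of the complex in every library, at 2.37-fold to 3.98-fold the FPKM of Dbt. The exception to the order was Celf1 AKO replicate 3, with Bckdhb at 158 FPKM and Bckdha at 130 FPKM.

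**Figure D2:**
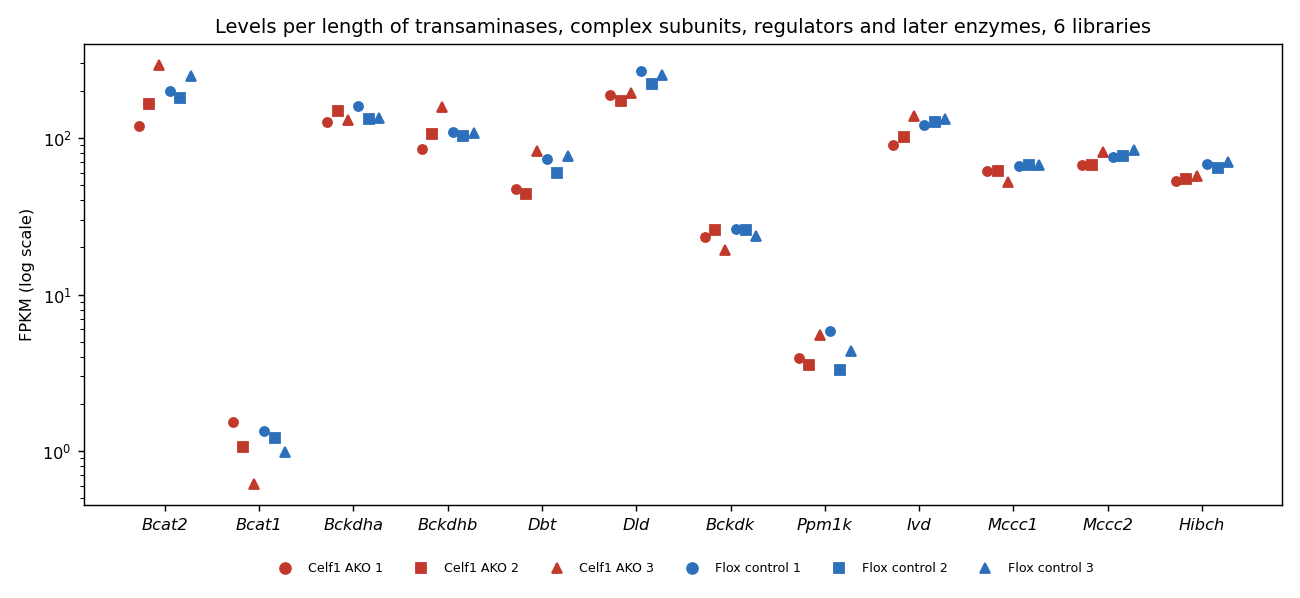
FPKM on a log axis of the transaminases, complex subunits, regulators and later enzymes in each of the 6 libraries (red, Celf1 AKO; blue, Flox control; marker shape, replicate). Bcat2, the E1 subunits, Dld and Ivd lie near or above 100 FPKM, Bckdk near 20 to 30, Ppm1k near 3 to 6 and Bcat1 near 1.

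The complex's kinase and phosphatase were the lowest of the 10 genes per length. Bckdk (ENSMUSG00000030802; chromosome 7, 127904082 to 127910221, plus strand) was at 66.2, 78.1 and 53.0 CPM in the knockout libraries, against 80.2, 71.1 and 65.6 CPM in the controls. Its log2 fold change was -0.14 (SE 0.16), and the groups overlapped. Ppm1k (ENSMUSG00000037826; chromosome 6, 57506502 to 57535468, minus strand) was at 21.8, 20.9 and 29.6 CPM in the knockout libraries, against 34.8, 17.7 and 23.4 CPM in the controls. The controls of Ppm1k held both the highest and the lowest of the 6 values, and its log2 fold change was -0.07 (SE 0.26), the nearest to 0 of the 10. Kinase FPKM exceeded phosphatase FPKM in every library, by 5.93-fold, 7.31-fold and 3.49-fold in Celf1 AKO and by 4.50-fold, 7.86-fold and 5.46-fold in Flox control.

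Of the leucine branch, Ivd and both subunits of one carboxylase were measured. Ivd, isovaleryl-CoA dehydrogenase (ENSMUSG00000027332; chromosome 2, 118861954 to 118882909, plus strand), was at 331, 396 and 485 CPM in the knockout libraries, against 475, 447 and 472 CPM in the controls. The control values lay within 1.06-fold of each other, and knockout replicates 1 and 2 lay below them and replicate 3 above them. The log2 fold change was -0.20 (SE 0.16). Mccc1, the biotin-carrying subunit of 3-methylcrotonyl-CoA carboxylase (ENSMUSG00000027709; chromosome 3, 35959312 to 36000678, minus strand), was at 184, 195 and 149 CPM in the knockout libraries, against 210, 191 and 194 CPM in the controls, a log2 fold change of -0.17 (SE 0.13). Mccc2, its partner subunit (ENSMUSG00000021646; chromosome 13, 99948530 to 100015639, minus strand), was at 143, 150 and 166 CPM in the knockout libraries, against 171, 156 and 173 CPM in the controls, -0.12 (SE 0.11). Both overlapped between the groups, and replicate 3 was the lowest knockout library for Mccc1 and the highest for Mccc2. Exons of Mccc1 overlap 3 genes on the opposite strand, of which Gm15952 and Mccc1os were at no more than 0.75 and 0.72 CPM, and B230207O21Rik was not among the genes analysed here.

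Hibch, 3-hydroxyisobutyryl-CoA hydrolase of the valine branch (ENSMUSG00000041426; chromosome 1, 52844929 to 52920986, plus strand), was the gene of the 10 in which the genotypes lay farthest apart relative to their spread. It was at 201, 217 and 206 CPM in the knockout libraries, against 276, 234 and 257 CPM in the controls. All 3 knockout libraries were below all 3 controls, replicate 3 included, and the knockout mean was 81.5% of the control mean (208 ± 7.96 against 255 ± 20.9 CPM; SD, n = 3 each). The log2 fold change of -0.30 (SE 0.11) did not pass the test, with an edgeR adjusted p of 0.347. Leaving out any 1 library gave -0.36 to -0.23. A processed pseudogene, Gm7512, was 92.6% identical to the Hibch transcript over 1124 bases, so counting could split reads between the copies, and Gm7512 was not among the genes analysed here.

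**Figure D3:**
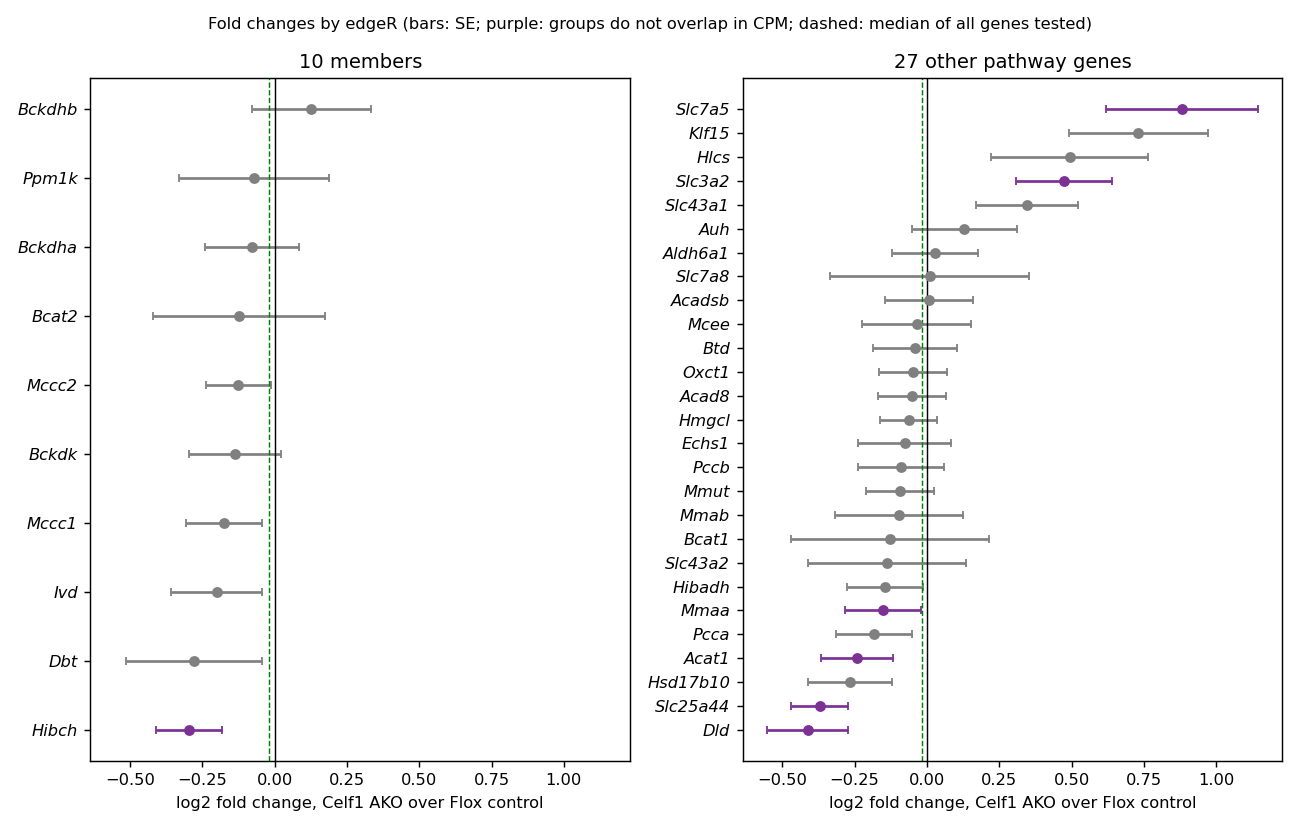
Fitted log2 fold change (Celf1 AKO over Flox control) with its SE by edgeR for the 10 genes (left) and the 27 other pathway genes (right), purple where the groups do not overlap in CPM, with the median of all genes tested dashed. The 10 genes lie between -0.30 and 0.13. Farthest to the right are Slc7a5, the regulator Klf15, the biotin ligase Hlcs, Slc3a2 and Slc43a1, and farthest to the left Dld and Slc25a44.

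In the knockout group, replicate 3 lay above the other libraries for some of the 10 genes and below them for others. Against the mean of knockout replicates 1 and 2, replicate 3 was 1.91-fold for Bcat2, 1.68-fold for Dbt, 1.54-fold for Bckdhb and 1.33-fold for Ivd, and above all other 5 libraries for these 4 genes. It was 0.735-fold for Bckdk, 0.788-fold for Mccc1 and 0.883-fold for Bckdha, and below all other 5 libraries for these 3. The gap to the nearest other library was narrow for Dbt (261 against 260 CPM) and Bckdha (221 against 223 CPM). Thus 7 of the 10 genes lay outside the range of the other libraries in replicate 3, some narrowly, against 32.2% of all genes tested. Without that library, log2 fold changes were -0.51 for Bcat2, -0.58 for Dbt, -0.36 for Ivd and -0.11 for Bckdhb, but -0.02 for Bckdha, -0.01 for Bckdk and -0.07 for Mccc1. The median of the 10 was then -0.22, and 0 of them passed edgeR's adjusted test, where 3.19% of all genes did. Replicate 1 of Celf1 AKO weighed on the median the other way. It was the lowest of the 6 libraries for 5 of the 10 genes, and without it the median was -0.04. Replicate 3 was also the library with the high Acta1 and neutrophil values given above, and their part in this pattern was not tested.

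**Figure D4:**
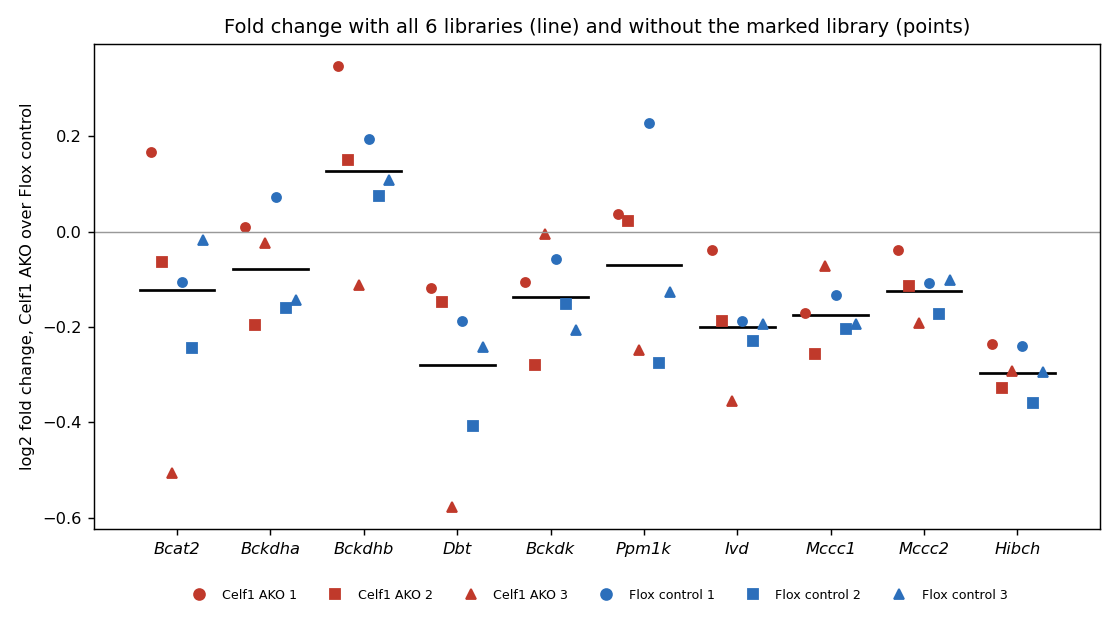
Log2 fold change of each of the 10 genes with all 6 libraries (black line) and with the library of the marked colour and shape left out (points). Without Celf1 AKO replicate 3 (red triangle) Bcat2 and Dbt move to -0.51 and -0.58, and without Celf1 AKO replicate 1 (red circle) Bcat2 lies at 0.17, while Hibch stays between -0.36 and -0.23 whichever library is left out.

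Partner genes were then set against each other within each library, which needs no scaling between libraries. Over 5 such FPKM ratios, the difference between group means on the log2 scale (Celf1 AKO minus Flox control) ran from -0.24 for Dbt to Bckdha to -0.06 for Mccc1 to Mccc2. Exact two-sided permutation p-values ran from 0.5 to 1, each 1 after Benjamini-Hochberg adjustment over the 5, and the smallest that 3 against 3 allows is 0.1. The kinase to phosphatase ratio, Bckdk to Ppm1k, was 2.41 ± 0.55 in Celf1 AKO and 2.53 ± 0.41 in Flox control (log2, SD, n = 3 each; exact permutation p = 0.9). The kinase to substrate ratio, Bckdk to Bckdha, was -2.56 ± 0.16 against -2.49 ± 0.13 (exact permutation p = 0.6).

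Single libraries set these ratios apart more than the genotype did. E1 alpha to E1 beta, Bckdha to Bckdhb, was 1.48, 1.39 and 0.821 in Celf1 AKO replicates 1, 2 and 3 and 1.47, 1.28 and 1.25 in Flox control. Replicate 3 of Celf1 AKO was the only library in which the beta subunit exceeded the alpha subunit. Mccc1 to Mccc2 was 0.919, 0.923 and 0.639 in Celf1 AKO and 0.876, 0.871 and 0.799 in Flox control, again lowest in that library. Dbt to Bckdha was 0.378, 0.297 and 0.635 in Celf1 AKO, below the controls (0.459, 0.451 and 0.565) in replicates 1 and 2 and above them in replicate 3.

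**Figure D5:**
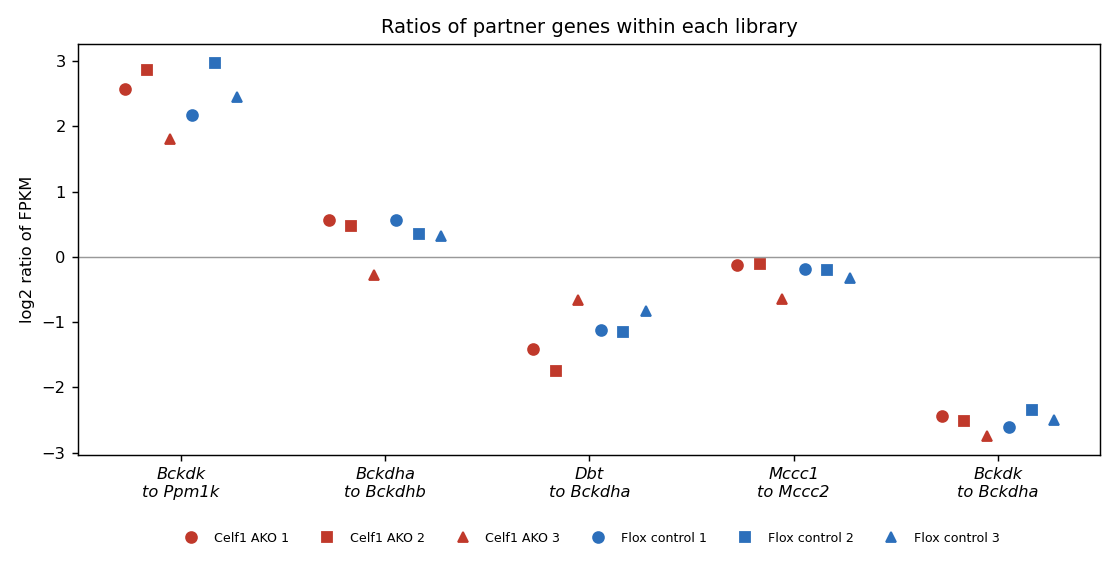
Log2 ratio of FPKM of 5 pairs of partner genes in each library (red, Celf1 AKO; blue, Flox control; marker shape, replicate; 0 means equal FPKM). Celf1 AKO replicate 3 is the lowest library for 4 of the 5 ratios and the highest for Dbt to Bckdha, and the group means differ by no more than 0.24.

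The rest of the pathway was read from a list of 27 further genes: transporters, the other enzymes down to acetyl-CoA and succinyl-CoA, biotin supply and the regulator Klf15. All 27 were tested, 18 were negative and 9 positive, the median log2 fold change was -0.06, and 0 passed edgeR's adjusted test in either direction. Unadjusted, edgeR's p was under 0.05 for 5 of the 27 (12.9% of all genes). In CPM, 4 of the 27 lay lower without overlap (9.51% of all genes) and 2 higher (7.81% of all genes). DESeq2 called 2 of the 27 (2.97% of all genes), Slc25a44 lower and Slc7a5 higher.

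Transport genes lay on both sides. Slc25a44, the mitochondrial carrier for branched-chain amino acids, was at 103, 111 and 110 CPM in the knockout libraries, against 142, 142 and 134 CPM in the controls. All knockout libraries were below all controls, with a knockout mean 77.3% of the control mean and a log2 fold change of -0.37 (SE 0.10). Its adjusted p was 0.259 by edgeR and 0.0433 by DESeq2. In edgeR with 1 library left out it ran up to 0.792 (without Flox control replicate 3). Over those fits the log2 fold change stayed between -0.40 and -0.30. Slc7a5, the plasma membrane exchanger of large neutral amino acids, was at 6.90, 8.07 and 9.14 CPM in the knockout libraries, against 5.93, 3.82 and 3.34 CPM in the controls. The groups did not overlap, with a log2 fold change of 0.88 (SE 0.26) and an adjusted p of 0.293 by edgeR and 0.0440 by DESeq2. Slc3a2, the heavy chain that pairs with it, was at 321, 422 and 330 CPM against 300.2, 225 and 248 CPM, higher in all 3 knockout libraries, with a log2 fold change of 0.47 (SE 0.16; edgeR adjusted p = 0.321). Slc43a1, a facilitative carrier of the same amino acids, overlapped between the groups (87.2 ± 14.1 against 68.6 ± 12.5 CPM; log2 fold change 0.35).

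Of the shared E3 and the later enzymes, those of smallest p are given here, and none passed edgeR's adjusted test. Dld was at 424, 407 and 420 CPM in the knockout libraries, against 638, 475 and 552 CPM in the controls, without overlap, a log2 fold change of -0.41 (SE 0.14; edgeR adjusted p = 0.314). The thiolase Acat1 (347 ± 11.6 against 410 ± 42.7 CPM) and Mmaa, which serves the cobalamin cofactor of methylmalonyl-CoA mutase (16.1 ± 1.63 against 17.9 ± 0.61 CPM), were also lower without overlap, with log2 fold changes of -0.24 and -0.15. Hsd17b10 of the isoleucine branch (-0.27), Pcca, the biotin-carrying subunit of propionyl-CoA carboxylase (-0.18), and Hibadh, which acts next after Hibch on valine (-0.14), overlapped between the groups. Hlcs, the ligase that attaches biotin to carboxylases, had a log2 fold change of 0.49, with overlap, at 12.4 ± 3.93 against 8.83 ± 1.59 CPM. The edgeR adjusted p-values for these genes other than Dld ran from 0.454 for Acat1 to 0.673 for Hibadh. Hibadh and Mmaa, like Hibch, have processed pseudogenes that were not among the genes analysed here (Gm11225 and Gm4935, each 91.7% identical, over 855 and 1247 bases). Slc25a44 shares a shorter stretch, 323 bases at 90.4% identity, with the antisense gene Gm26852, which was in the count table.

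Klf15, a zinc finger factor known to regulate amino acid breakdown genes in muscle and liver (ENSMUSG00000030087; chromosome 6, 90462576 to 90475238, plus strand), was at 234, 291 and 172 CPM in the knockout libraries, against 182, 122 and 117 CPM in the controls. The knockout mean was 166% of the control mean, and replicate 3 lay below Flox control replicate 1. The log2 fold change was 0.73 (SE 0.24). Adjusted p-values were 0.307 by edgeR, 0.101 by DESeq2, and in edgeR with 1 library left out 0.0711 (without Celf1 AKO replicate 3) to 0.799.

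Promoters were read for the letters CCNCNCCC (N is any base), a GC-rich motif of KLF factors that SP factors share, on both strands of the 250 bases before the RefSeq start (GRCm38.p6). Of the 10 genes, 9 had an entry, and 5 of those held the motif (Hibch, Ivd, Mccc1, Ppm1k and Bckdhb), against 45.6% of 27025 promoters of the same length. Bcat2, Bckdha, Bckdk and Mccc2 held none. The core of the oestrogen-related receptor site, AAGGTCA, was in 0 of the 9 (4.05% of all promoters), and the cAMP response element TGACGTCA was in 0 of the 9 (1.62%). These matches are descriptions of letters and not of binding. Shown are the 140 bases just before the first annotated start of Hibch (chr1:52844789-52844928), the gene of the 10 whose groups did not overlap, of Klf15 itself (chr6:90462436-90462575), and of Bcat2 (chr7:45570013-45570152), all on the plus strand and 5′ to 3′, with matches to the KLF motif in capitals.
Hibch: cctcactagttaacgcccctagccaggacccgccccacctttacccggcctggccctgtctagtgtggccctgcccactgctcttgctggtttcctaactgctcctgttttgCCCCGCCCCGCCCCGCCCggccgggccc
Klf15: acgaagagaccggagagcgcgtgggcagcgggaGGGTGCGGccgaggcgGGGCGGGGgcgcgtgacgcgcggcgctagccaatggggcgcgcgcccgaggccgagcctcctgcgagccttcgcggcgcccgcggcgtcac
Bcat2: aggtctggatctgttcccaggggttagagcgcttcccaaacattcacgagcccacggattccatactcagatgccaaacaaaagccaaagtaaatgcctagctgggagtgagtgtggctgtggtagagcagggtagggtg
The Hibch stretch held 3 overlapping matches in 1 run, the Klf15 stretch 2 separate ones on the opposite strand, and the Bcat2 stretch 0.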

How the data were processed

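The deposited tables held raw counts (whole numbers, unnormalized) and FPKM of the same Ensembl genes, with 1 column of each per library, per the file headers. HISAT2, RSEM 1.3.1 and the builds GRCm38 and mm10 are named in the submitters' processing notes without their roles. The annotation and the strand setting used by the authors: not given in the sources used here. Symbols matched 16522 of 16627 identifiers, and positions came from GENCODE M21 (GRCm38).

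Counts of all 6 libraries were tested with edgeR 4.0.16 (R 4.3.3; quasi-likelihood test, TMM, default filter, robust, genotype as the only term), with Benjamini-Hochberg adjustment over 16366 genes (261 removed) and a threshold of 0.05. Each SE was taken as |log2 fold change| divided by the square root of F. The fits were tested on simulated data with planted changes larger than those fitted for the 10 genes. Detection of changes as small as theirs was not tested. Alternatives were other normalizations and filters, DESeq2 1.42.0, limma 3.58.1, a replicate block, and leaving out each library. The limma fits used voom, and log2(FPKM + 1 or 0.1) with a minimum of 1 FPKM in 3 libraries. The log2(FPKM + 1) fit was also run without that minimum. FPKM was used for levels between genes and for ratios within libraries, tested by exact permutation. The named genes were the 10 members and the 12 others of smallest p in the wider list; Bcat1 and the cell markers stand beside results they touch. The members and lists were chosen with earlier results of these data known.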

Additional observations from a re-analysis of the deposited data

How the results depend on the processing

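No setting called any of the 10 genes, and with all 6 libraries kept their 110 fold changes over 11 other settings all kept their sign. Leaving out 1 library turned the sign of 4 genes, whose log2 fold changes ran from -0.51 to 0.17 for Bcat2, -0.20 to 0.072 for Bckdha, -0.11 to 0.35 for Bckdhb and -0.28 to 0.23 for Ppm1k. Within-library ratios also turned sign with 1 library left out, the difference running from -0.34 to 0.19 for Bckdk to Ppm1k, -0.32 to 0.10 for Bckdha to Bckdhb, -0.55 to 0.0016 for Dbt to Bckdha, -0.15 to 0.12 for Mccc1 to Mccc2 and -0.14 to 0.013 for Bckdk to Bckdha. The cause was not tested. DESeq2 called 2 of the 27 wider pathway genes (2.97% of all genes), and no other setting called any; their median was 0.01 without Flox control replicate 1. The labels give same-numbered libraries only a shared number and state no pairing. Deviations of these libraries from their group means correlated at 0.071, -0.0084 and 0.27 for replicates 1, 2 and 3. Such values cannot settle whether the libraries were paired. With the replicate block, 0 of the 10 genes were called and the median of the 10 was -0.17. With 3 libraries per group, a p that missed the threshold does not show that the genotypes had equal levels.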
